A study of Mus musculus with 98 samples.

Results

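The clustered histone genes were defined here as every row of the deposited expression table whose gene symbol starts with Hist1h, Hist2h, Hist3h or Hist4h, which gave 69 of 24526 genes. They encode the 5 histone classes, with 6 genes for the linker histone H1, 19 for H2A, 19 for H2B, 12 for H3 and 13 for H4. Levels came from 98 libraries of rRNA-depleted RNA from mouse hindlimb muscle, in 24 groups and 5 cohorts. HSALR homozygous mice carry a human skeletal actin transgene with an expanded CUG repeat, expressed in skeletal muscle, and model myotonic dystrophy. FVB/NJ is the wild-type strain. The oligomer given was a (CAG)7 PMO (phosphorodiamidate morpholino oligomer), complementary to the CUG repeat, either unconjugated (30 mg/kg) or conjugated to EEV4 (EEV4-PMO, 15 or 30 mg/kg), and the other mice received PBS.

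In gastrocnemius, the dose cohort held, all at 7 days, FVB/NJ mice given PBS (n = 4) and HSALR mice given PBS (n = 8), PMO at 30 mg/kg (n = 4), EEV4-PMO at 15 mg/kg (n = 4) or EEV4-PMO at 30 mg/kg (n = 4). The gastrocnemius time course held FVB/NJ and HSALR mice given PBS, both at 4 days, and HSALR mice at 1, 2 and 4 days after EEV4-PMO at 15 mg/kg, with 4 libraries in each group. The quadriceps time course had the same groups plus EEV4-PMO at 7 days, again with 4 libraries in each. In the nascent RNA cohort, HSALR quadriceps was sampled at 4 days after PBS (n = 4) and at 1 day (n = 3) or 2 days (n = 3) after EEV4-PMO at 15 mg/kg, and each group was sequenced both as total RNA and as nascent RNA, the fraction that holds 5-ethynyluridine (EU). The last cohort was HSALR quadriceps at 3 months after PBS (n = 4) or EEV4-PMO at 15 mg/kg (n = 6). No treated FVB/NJ group was used. The PBS group of each time course and of the nascent RNA cohort was taken at 1 time only. Day of sampling and treatment therefore cannot be told apart at the other times. The labels do not say that replicates are separate animals, so p-values measure the spread between these libraries. The ages of the mice are not given in the sources used here. Summed skeletal muscle markers were between 85388 and 220160 TPM in all 98 libraries, with the lowest values in nascent RNA.

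Core histones package DNA into nucleosomes, with H2A and H2B entering as a dimer and H3 and H4 as a tetramer, and H1 binds the linker DNA between nucleosomes. Most clustered histone genes are transcribed mainly in S phase, when new chromatin is made, and their short, intronless mRNAs end after a conserved stem-loop in place of a poly(A) tail. Stem-loop binding protein (Slbp) and the U7 small nuclear ribonucleoprotein direct that cut. Mature muscle fibres do not divide, whereas satellite cells and infiltrating immune cells can, and some clustered genes also give longer, polyadenylated transcripts in cells that have left the cycle. Depletion of rRNA, unlike selection of poly(A) RNA, keeps transcripts without a tail in the library.

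The stem-loop was the feature shared by most of the genes. It was found in the annotated transcript of 46 of the 69 genes (GENCODE vM21, GRCm38) and in 12 of 23734 other genes of the table, which is 0.0506%. The 46 loops had 8 distinct sequences, and the commonest was in 26 genes. The sites of 4 genes that carry the results below are shown 5′ to 3′ as DNA of the coding strand, with the stem-loop in capitals and its flanks in lower case:
Hist1h3b (chr13:23752267-23752886, plus strand, single exon): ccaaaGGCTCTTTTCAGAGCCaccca
Hist1h2bb (chr13:23746734-23747241, plus strand): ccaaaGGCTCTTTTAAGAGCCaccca
Hist1h4h (chr13:23531050-23531519, plus strand): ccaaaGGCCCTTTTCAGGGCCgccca
Hist1h1c (chr13:23738808-23740367, plus strand): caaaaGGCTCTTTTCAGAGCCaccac
The coordinates are those of the annotated gene. Of the 23 genes without a match, 17 had annotated single-exon transcripts that ended at most 20 nt past the stop codon. The stretch that would hold the loop was not annotated in those transcripts. Among the 17, Hist1h2bq and Hist1h2br also had longer transcripts (up to 2015 and 2197 nt, up to 3 exons), in which no loop was found. In 23 genes the annotated transcript ran on for more than 100 nt past the loop, as in Hist1h1c. The longest transcript had a median of 534 nt, against 2699 nt for the other genes, and 64 of the 69 genes had a single exon. By chromosome, 55 genes lay on 13, 10 on 3, 3 on 11 and 1 on 6.

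Promoters also carried shared short motifs. RefSeq promoters (GRCm38.p6, 250 bases before to 50 after the start) were matched for 62 of the genes, out of 27025. ATTTGCAT (the octamer, an element known from H2B promoters), CCAAT and TATAAA were searched on both strands, and matches could overlap each other. The octamer was in 1.75% of all promoters and in 13 of the 62, all of them H2A (7 of 18) or H2B (6 of 16) genes. CCAAT was in 37.9% of all promoters and in 85.5% of the 62, although only in 3 of 12 H4 promoters, and TATAAA was in 14.2% and 56.5%. The 2 promoters printed belong to an H3 gene and an H2B gene that rose together in gastrocnemius at 4 days, as described below, with the motifs in capitals:
Hist1h3b (chr13:23752095-23752394, plus strand): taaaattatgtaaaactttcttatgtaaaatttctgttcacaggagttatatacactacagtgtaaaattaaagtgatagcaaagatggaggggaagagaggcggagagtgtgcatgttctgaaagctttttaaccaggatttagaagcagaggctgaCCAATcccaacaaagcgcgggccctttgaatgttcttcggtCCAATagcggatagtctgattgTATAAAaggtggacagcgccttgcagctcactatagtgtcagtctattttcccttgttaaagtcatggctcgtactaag
Hist1h2bb (chr13:23746484-23746783, plus strand): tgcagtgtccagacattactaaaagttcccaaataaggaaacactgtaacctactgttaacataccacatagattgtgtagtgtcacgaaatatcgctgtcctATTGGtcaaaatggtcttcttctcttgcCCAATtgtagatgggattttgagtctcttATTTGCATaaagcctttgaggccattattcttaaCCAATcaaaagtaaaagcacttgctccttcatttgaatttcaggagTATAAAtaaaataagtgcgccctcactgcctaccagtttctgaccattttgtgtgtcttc
The Hist1h2bb promoter held 1 octamer, 3 CCAAT boxes and 1 TATAAA, and the Hist1h3b promoter held 2 CCAAT boxes, 1 TATAAA and no octamer. These matches describe the sequence and are not measured binding sites.

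Levels are given in TPM (transcripts per 1000000), which is scaled to annotated transcript length. Levels of different genes can be compared only as far as those lengths, and the split of reads between near-identical genes, are right. A small set of genes made up most of the signal. Over all 98 libraries 59 genes had a mean of at least 1 TPM, 25 of at least 10 and 8 of at least 50. Hist1h1c, a linker histone gene, had a mean of 164 TPM, a median of 156 and a range of 96.0 to 330, a mean over total and nascent libraries together. The H4 gene Hist1h4h had a mean of 156 TPM, a median of 160 and a range of 38.6 to 230, so Hist1h1c was the highest by the mean and Hist1h4h by the median. Next came the H4 genes Hist1h4i (126 TPM, 12.6 to 198), Hist1h4c (95.9 TPM, 32.0 to 152) and Hist1h4d (90.0 TPM, 45.7 to 219). The others were the H2A gene Hist2h2aa1 (116 TPM, 26.5 to 193), the H2B gene Hist1h2bc (97.1 TPM, 32.2 to 137) and the linker gene Hist1h1e (69.1 TPM, 39.3 to 118). The ranges of neighbours in this order overlap widely. At the low end were genes known for expression in testis. Hist1h2ba (testis H2B) was listed at 0 in all 98 libraries, Hist1h2aa (testis H2A) was above 0 in 2 and Hist1h1t (testis H1) in 34.

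Some genes cannot be told apart by their reads. Hist1h2bq and Hist1h2br have an identical annotated transcript and the same TPM in all 98 libraries, so they carry 1 measurement between them. Hist2h3c1 and Hist2h3c2, which encode H3, moved in opposite ways within groups (r of deviations from group means −0.653 over 98 libraries, a description), as did the H4 pair Hist1h4m and Hist1h4n (r = −0.383). Each of Hist2h3c1 and Hist2h3c2 ranged from 0 to over 40 TPM, whereas their sum stayed between 13.3 and 59.1 TPM. Results for the Hist2h3c and Hist1h4m/Hist1h4n pairs are given with the sum of the pair, and those for Hist1h2bq and Hist1h2br as the value of either gene. Hist2h2aa1 and Hist2h2aa2 were treated as near-identical as well. Hist2h2aa2 was above 0 in 9 of the 98 libraries, at most 5.90 TPM, and Hist2h2aa1 is reported singly. Hist1h2al and Hist3h2bb-ps are annotated as processed pseudogenes.

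The summed level of the 69 genes ranged over the groups from a mean of 898 TPM (nascent RNA, EEV4-PMO, 2 days) to 2129 TPM (gastrocnemius, EEV4-PMO, 4 days). Outside nascent RNA the lowest group mean was 1194 TPM, in quadriceps 3 months after EEV4-PMO. The 8 highest genes held 50.4% to 68.6% of the sum in the group means, with the lowest share in gastrocnemius at 4 days after EEV4-PMO.

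**Figure D1:**
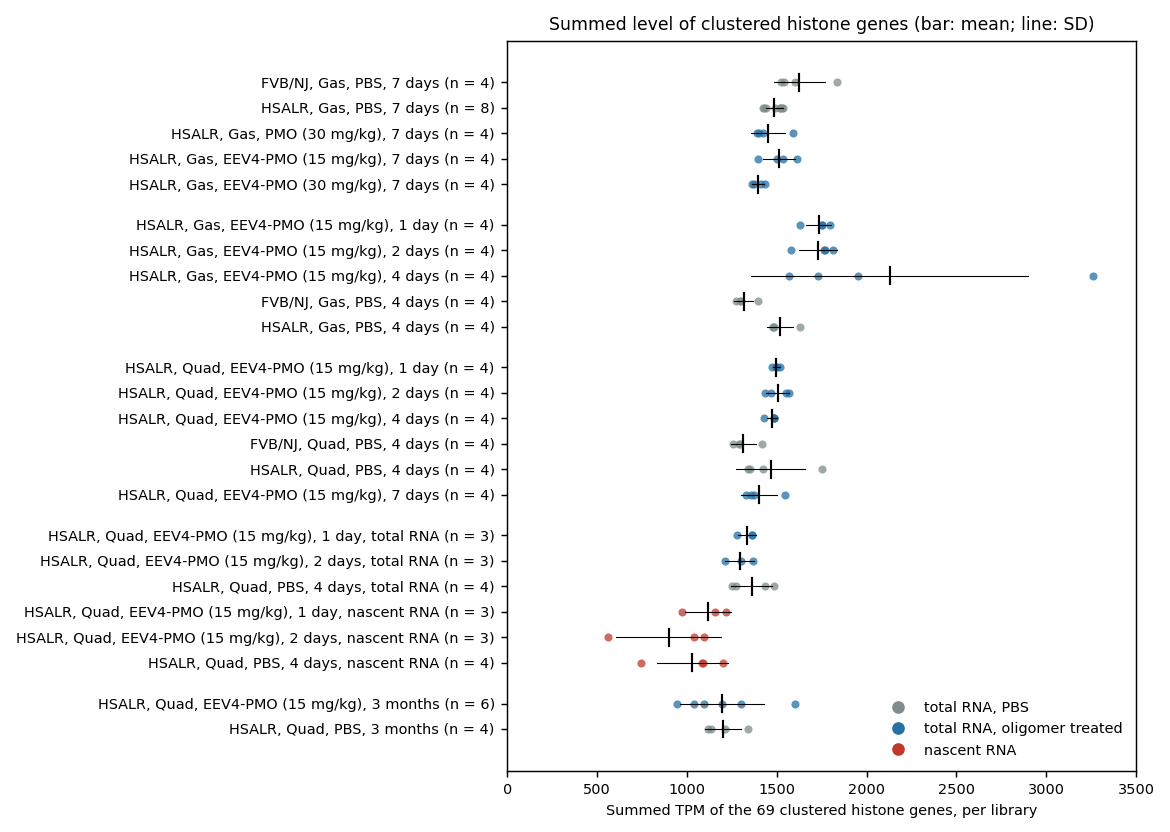
Summed TPM of the 69 clustered histone genes (x axis) in each library (points), by group (y axis; Gas, gastrocnemius; Quad, quadriceps); the bar is the group mean and the line its SD. Nascent RNA lies lowest, and 1 library of gastrocnemius at 4 days after EEV4-PMO lies apart at 3260 TPM.

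Nascent RNA held relatively less clustered histone RNA than total RNA did, and the most abundant H4, H2A and H2B genes were among those that fell. In PBS quadriceps, Hist1h4h stood at 128, 152, 146 and 169 TPM in the 4 total RNA libraries and at 63.7, 94.0, 63.9 and 38.6 TPM in nascent RNA. Hist1h2bc stood at 122, 110, 107 and 103 TPM in total and 42.0, 46.4, 47.9 and 32.2 TPM in nascent RNA. Hist2h2aa1 stood at 114, 126, 126 and 133 TPM in total and 52.0, 53.8, 47.8 and 34.7 TPM in nascent RNA. For each of these genes all 4 nascent libraries were below all 4 total RNA libraries. The log2 differences, nascent minus total on the log2(TPM + 1) scale, were −1.24 ± 0.20 (SE; adjusted p = 2.41e-05) for Hist1h4h, −1.39 ± 0.14 (adjusted p = 1.19e-07) for Hist1h2bc and −1.41 ± 0.22 (adjusted p = 1.38e-05) for Hist2h2aa1.

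The linker gene Hist1h1c went the other way. It stood at 113, 144, 120 and 124 TPM in total RNA and at 247, 276, 293 and 198 TPM in nascent RNA, a log2 difference of 1.00 ± 0.16 (adjusted p = 1.79e-05), with no overlap. The H2A gene Hist3h2a, outside the large cluster, stood at 31.6, 37.2, 36.02 and 34.9 TPM in total and at 60.9, 60.5, 60.3 and 45.7 TPM in nascent RNA (log2 difference 0.68 ± 0.14, adjusted p = 0.000339). Hist1h2af, an H2A gene, was the third to rise (0.94 ± 0.34, adjusted p = 0.0183). All 3 rises have to be read against the other genes. The median gene tested was higher in nascent RNA by 0.73 on the log2 scale, and with libraries rescaled by the median ratio, which moves the comparison by −0.732, none of the 3 was called: Hist1h1c was at 0.19, Hist1h2af at 0.20 and Hist3h2a, reversed, at −0.12.

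Over the genes that could be tested in this cohort (54 of 69; mean of at least 1 TPM), 3 rose and 26 fell in nascent RNA of PBS quadriceps (limma, Benjamini-Hochberg adjusted p under 0.05 over all genes tested). Of all 13891 genes tested, 79.3% were called, 59.2% as higher and 20.05% as lower, against 5.56% and 48.1% of the histone genes. The median histone gene differed by −0.67 on the log2 scale, against 0.73 for all genes, and 51 of the 54 lay below the median of all genes. After rescaling, 0 histone genes were higher and 41 of 55 (74.5%) lower, against 40.1% of all genes lower. The 15 genes not tested were Hist1h1t, Hist1h2aa, Hist1h2ab, Hist1h2ae, Hist1h2ag, Hist1h2ah, Hist1h2an, Hist1h2ap, Hist1h2ba, Hist1h2bj, Hist1h2bn, Hist1h2bp, Hist1h4b, Hist2h2aa2 and Hist3h2bb-ps.

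**Figure D2:**
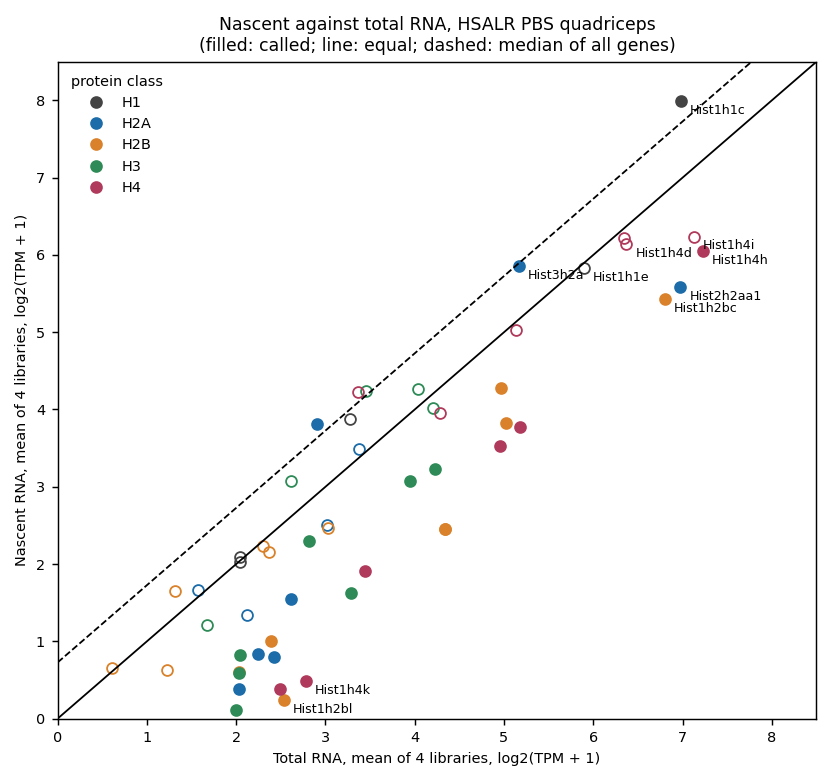
Log2(mean TPM + 1) of 4 nascent RNA libraries (y axis) against that of 4 total RNA libraries (x axis) of PBS quadriceps. Each tested clustered histone gene is 1 point, coloured by class and filled where called. The solid line marks equal levels and the dashed line the median difference of all genes (0.73). By the fitted log2 differences, 51 of 54 genes lay below that median.

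Several of the largest falls were in genes of low level. The H4 gene Hist1h4k stood at 1.96, 5.95, 7.20 and 8.38 TPM in total RNA and at 0, 0, 1.61 and 0 TPM in nascent RNA (log2 difference −2.31 ± 0.50, adjusted p = 0.000419). Hist1h2bl, an H2B gene, stood at 1.93, 5.96, 5.51 and 5.81 TPM against 0.719, 0, 0 and 0 TPM (−2.26 ± 0.51, adjusted p = 0.000654). Hist1h4j fell by 1.96 (SE 0.47, adjusted p = 0.00107), and the inseparable Hist1h2bq and Hist1h2br by 1.92 (SE 0.35, adjusted p = 7.81e-05). Hist1h4k, Hist1h2bl and Hist1h4j were at 0 in 3 of 4 nascent libraries, where TPM + 1 understates a fold change. Hist1h4n had the largest difference (−2.41 ± 0.93, adjusted p = 0.0258), but its nascent values ran from 0 to 29.2 TPM, its call was lost without nascent PBS replicate 1 (−2.13, adjusted p = 0.0686) or replicate 4 (−1.56, adjusted p = 0.113), and summed with Hist1h4m the difference was −0.58 (adjusted p = 0.172).

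By class, the falls took in the core histones. Of the tested genes, 5 of 11 H2A, 8 of 14 H2B, 7 of 12 H3 and 6 of 12 H4 genes fell, and 0 of 5 H1 genes did. The medians were 0.05 for H1, −0.91 for H2A, −0.96 for H2B, −0.76 for H3 and −1.11 for H4. Abundant genes that were not called before rescaling were Hist1h4i (−0.99, adjusted p = 0.0554), Hist1h4d (−0.24, adjusted p = 0.223), Hist1h4c (−0.19, adjusted p = 0.582) and Hist1h1e (−0.08, adjusted p = 0.695). All 4 were called lower after rescaling.

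The same contrast was seen in both treated groups. At 1 day after EEV4-PMO, 5 of 54 genes were higher and 14 lower in nascent RNA (77.6% of all genes called, 60.9% as higher and 16.7% as lower, against 25.9% of the histone genes). The median was −0.39, against 0.84 for all genes. After rescaling, 1 was higher and 36 lower (65.5% lower, against 38.3% of all genes). The largest falls were those of the H2B gene Hist1h2bk (−2.17 ± 0.61, adjusted p = 0.00403), of Hist1h4k (−2.09 ± 0.58, adjusted p = 0.00331) and of the H2A gene Hist1h2ai (−2.01 ± 0.49, adjusted p = 0.00129). The largest rises were those of Hist3h2ba (H2B; 1.80 ± 0.33, adjusted p = 9.52e-05), Hist2h2ab (H2A; 1.49 ± 0.40, adjusted p = 0.00283) and Hist3h2a (1.34 ± 0.17, adjusted p = 1.11e-06). Hist3h2ba is a gene of low level, and the libraries in which it rose count towards the mean used by the filter.

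At 2 days, 3 genes were higher and 20 lower (74.7% of all genes called, 55.7% as higher and 19.1% as lower, against 37.0% of the histone genes). The median was −0.72, against 0.65 for all genes, and after rescaling 0 were higher and 37 lower (67.3%, against 38.6% of all genes). The largest falls were those of Hist1h4f (−2.21 ± 0.46, adjusted p = 0.000369), of Hist1h2bq and Hist1h2br (−2.15 ± 0.40, adjusted p = 0.000127) and of Hist2h4, an H4 gene (−2.13 ± 0.56, adjusted p = 0.00261). Hist1h3g (H3; 1.01 ± 0.37, adjusted p = 0.0213), Hist2h2ab (0.92 ± 0.40, adjusted p = 0.0469) and Hist3h2a (0.87 ± 0.17, adjusted p = 0.000153) rose. Hist1h3g was not called without nascent replicate 3 (0.73, adjusted p = 0.108) or total RNA replicate 1 (0.82, adjusted p = 0.0889). Hist2h2ab lost its call without any one of nascent replicates 1 (0.77, adjusted p = 0.14) and 2 (0.86, adjusted p = 0.107) and total RNA replicates 1 (0.83, adjusted p = 0.118) and 2 (0.68, adjusted p = 0.182).

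In all 3 groups of mice, 12 genes were lower in nascent RNA: Hist1h2ai, Hist1h2bc, Hist1h2be, Hist1h2bk, Hist1h2bm, Hist1h2bq, Hist1h2br, Hist1h3h, Hist1h4h, Hist2h2aa1, Hist2h2bb and Hist2h4. Hist3h2a was higher in all 3. With rescaling 28 genes were lower and 0 higher in all 3. The share of all genes called in all 3 was not computed, so these counts have no background. In each group alone, 16.7% to 20.05% of all genes were lower before rescaling and 38.3% to 40.1% after it. The 12 include Hist1h2bq and Hist1h2br, which carry 1 measurement between them.

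Length and the end of the transcript went with the size of the difference in PBS quadriceps, and less so after EEV4-PMO. Of the tested genes of PBS quadriceps, the 36 with a longest transcript under 1000 nt had a median of −0.94 and the 17 between 1000 and 3000 nt one of −0.30. The other genes of the table had medians of 0.71 (1243 genes) and 0.43 (4893 genes), and of 0.90 over 3000 nt (7340 genes). The 21 genes annotated for more than 100 nt past the stem-loop had a median of −0.30 (2 higher, 6 lower), the 16 with at most 100 nt past it one of −1.32 (0 higher, 9 lower), and the 17 with no loop found one of −1.23 (1 higher, 11 lower). At 1 day after EEV4-PMO the medians were −0.47 under 1000 nt and −0.32 from 1000 to 3000 nt, against 0.76 and 0.55 in the other genes. By the loop they were −0.32 with more than 100 nt past it, −0.71 with at most 100 nt and −0.34 with no loop found. At 2 days the medians by length were −0.79 and −0.31, and the other genes then differed in the same direction, at 0.20 and 0.39. By the loop they were −0.25, −0.82 and −0.78. These are descriptions across genes, which share libraries. The correlation of the difference with log2 length over the 54 genes was r = 0.24 (rho = 0.24) in PBS mice, r = 0.11 (rho = 0.12) at 1 day and r = 0.11 (rho = 0.15) at 2 days. Over the other genes it was r = 0.005 (rho = 0.16), r = 0.017 (rho = 0.16) and r = 0.092 (rho = 0.20). Those correlations include the 7340 genes over 3000 nt. From under 1000 nt to the next length class, the median of the other genes fell in PBS mice and at 1 day and rose at 2 days. That of the histone genes rose each time. TPM divides by an effective length that shrinks quickly for short transcripts, and the part of that step in the difference was not tested.

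**Figure D3:**
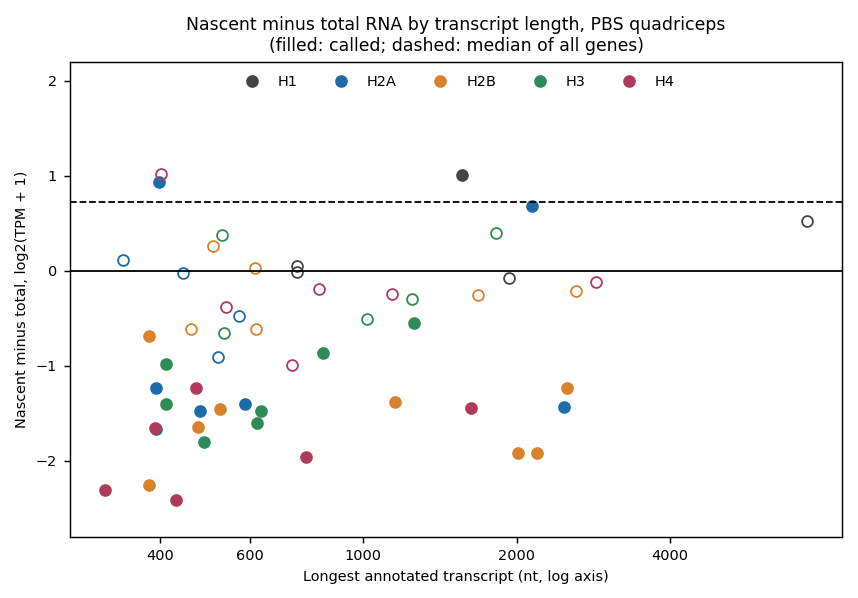
Nascent minus total RNA on the log2(TPM + 1) scale in PBS quadriceps (y axis) against the longest annotated transcript in nt (x axis, log scale), 1 point per tested clustered histone gene, filled where called. Genes under 1000 nt have a median of −0.94 and those of 1000 to 3000 nt one of −0.30; the dashed line is the median of all genes.

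Other RNA classes of the same libraries differed from the clustered genes in different directions. Of 11 tested genes that act in the transcription, 3′ end processing or decay of histone mRNA, 9 were higher in nascent RNA and 1 lower, with the regulator Npat at 1.87, Casp8ap2 at 1.75 and Slbp at 1.59, and the cleavage scaffold Sympk at −1.001; after rescaling 5 were higher and 3 lower. Of 4 other RNAs that end without a poly(A) tail, 0 were higher and 3 lower, namely Rprl3 (−3.25), the RNase P RNA Rpph1 (−2.76) and the RNase MRP RNA Rmrp (−2.19). Of 10 tested histone variant genes, 3 were higher, with H3f3b at 1.64, and 6 lower, with H2afj at −1.08 and H3f3a at −1.03. H3f3a and H3f3b encode the same H3.3 protein. Of 13 tested S phase genes, 6 were higher, with Tyms at 2.86, and 3 lower, with Pcna at −0.96; after rescaling 3 were higher and 6 lower. Marker genes of macrophages (1 higher and 6 lower of 11) and of skeletal muscle (1 higher and 5 lower of 10) also differed. The part of any of these differences in that of the histone genes was not tested.

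Within nascent RNA, few histone genes differed between EEV4-PMO at 1 or 2 days and PBS at 4 days. At 1 day 1 of 54 was called (1.05% of all genes): Hist3h2ba, at 2.51, 3.42 and 4.86 TPM against 0.400, 0, 1.00 and 0.882 TPM in PBS, rose by 1.57 ± 0.31 on the log2 scale (adjusted p = 0.0231). The groups did not overlap. The call was lost without PBS replicate 1 (1.53, adjusted p = 0.0584) or 2 (1.37, adjusted p = 0.0596), and no histone gene was called without treated replicate 2 or 3, or with the compared groups fitted alone (0). The mean of Hist3h2ba over all 98 libraries was 0.976 TPM. The 1-day nascent libraries in which it rose count towards the cohort mean by which it passed the filter. After rescaling Hist3h2ba did not pass the filter on low values, and the 1 gene called was Hist1h3e (0.62, adjusted p = 0.0471). At 2 days 1 was called (6.26% of all genes): the H3 gene Hist1h3e, at 12.1, 17.1 and 9.06 TPM against 7.65, 7.85, 8.21 and 6.0003 TPM, rose by 0.67 ± 0.17 (adjusted p = 0.0292). Again the groups did not overlap. That call was lost without treated replicate 2 (0.45, adjusted p = 0.104), PBS replicate 1 (0.69, adjusted p = 0.0541) or PBS replicate 4 (0.59, adjusted p = 0.0812). Without treated replicate 1, 6 genes were called, and the share of all genes called in that fit is not given here.

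In the total RNA libraries of the same cohort, 0 of 54 were called at 1 day (limma; 0.0144% of all genes were called) and 0 at 2 days (0.590% of all genes). An unadjusted p under 0.05 was reached by 1 at 1 day (4.97% of all genes) and 2 at 2 days (11.2% of all genes). The treatment effect in nascent RNA minus that in total RNA was called for 0 genes at 1 day (0.00720% of all genes) and 0 at 2 days (0% of all genes); 6 histone genes (11.1%; 5.23% of all genes) and 2 (3.70%; 4.33% of all genes) had an unadjusted p under 0.05. These contrasts use the same PBS libraries, so their results are not independent.

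In gastrocnemius at 7 days, doses of the oligomer changed a handful of genes. Unconjugated PMO at 30 mg/kg gave 0 calls of 58 tested (0% of all genes called; 4 had an unadjusted p under 0.05, 6.90%, against 7.82% of all genes). EEV4-PMO at 15 mg/kg gave 1 rise and 2 falls (11.1% of all genes called). The H4 gene Hist2h4 stood at 50.9, 38.6, 34.9 and 52.0 TPM, against 28.9 to 39.5 TPM in the 8 PBS libraries (median 32.2), and rose by 0.39 ± 0.11 (adjusted p = 0.0283). The H2B gene Hist1h2bg stood at 2.39, 6.25, 3.95 and 4.07 TPM against 5.89 to 13.1 TPM (median 8.72) and fell by 0.97 (SE 0.28, adjusted p = 0.0302). Hist1h1a, an H1 gene, stood at 1.88, 1.09, 1.39 and 2.81 TPM against 2.38 to 4.01 TPM (median 3.08) and fell by 0.58 (SE 0.18, adjusted p = 0.0457). All 3 groups of values overlapped with PBS, and all 3 calls depended on single libraries. Hist2h4 was not called without treated replicate 1 (0.31, adjusted p = 0.104) or 4 (0.30, adjusted p = 0.124) or PBS replicate 3 (0.36, adjusted p = 0.0514), Hist1h2bg without treated replicate 1, 3 or 4 or PBS replicate 4 (adjusted p from 0.0517 to 0.111), and Hist1h1a without treated replicate 1, 2 or 3 or PBS replicate 1, 2, 3, 5, 6 or 7 (adjusted p from 0.0512 to 0.175). Without treated replicate 1, and without replicate 3, the count fell from 3 to 1.

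EEV4-PMO at 30 mg/kg gave 1 rise and 3 falls (15.05% of all genes called). Hist1h1c stood at 150, 129, 134 and 136 TPM, below all 8 PBS libraries (155 to 188 TPM), and fell by 0.35 (SE 0.08, adjusted p = 0.00293). The H2B gene Hist2h2be stood at 5.11, 6.15, 5.62 and 5.71 TPM, above all 8 PBS libraries (3.44 to 4.96 TPM), and rose by 0.38 ± 0.10 (adjusted p = 0.0121). Hist1h2bc fell by 0.33 (SE 0.10, adjusted p = 0.0321) and Hist1h2al by 0.32 (SE 0.08, adjusted p = 0.0129). Hist1h2bc lost its call without treated replicate 2, 3 or 4 or PBS replicate 2 or 4 (adjusted p from 0.0506 to 0.135) and Hist1h2al without treated replicate 1 or 4 (adjusted p = 0.0578 and 0.0512); without treated replicate 4 the count fell from 4 to 2. These calls amount to 5.17% of the histone genes tested at the lower dose of EEV4-PMO and 6.90% at the higher, smaller shares than those of all genes.

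In the gastrocnemius time course, clustered histone genes rose at 4 days after EEV4-PMO at 15 mg/kg, in 1 library far more than in the other 3. The H3 gene Hist1h3b stood at 1.11, 4.49, 1.87 and 0 TPM in HSALR PBS and at 23.0, 29.9, 17.0 and 8.03 TPM at 4 days. The H3 gene Hist1h3c stood at 4.37, 2.10, 0.878 and 2.97 TPM in PBS and at 19.7, 35.7, 13.03 and 9.43 TPM at 4 days. The H2B gene Hist1h2bl stood at 2.49, 5.64, 3.37 and 1.14 TPM in PBS and at 12.1, 34.2, 17.1 and 12.4 TPM at 4 days. Every 4-day library was above every PBS library for these 3 genes, and replicate 2 was the highest of the 4. They rose by 2.96 ± 0.63 (adjusted p = 0.0437), 2.45 ± 0.33 (adjusted p = 0.00398) and 2.25 ± 0.39 (adjusted p = 0.017) on the log2 scale. In bulk muscle, a change in the number of cells of a type and a change in RNA per cell cannot be told apart.

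In all, 7 of 62 tested genes rose and 0 fell at 4 days (11.3%; 0.518% of all genes were called, 0.315% as higher). The other 4, named after their values were seen, were the H2B genes Hist1h2bf (2.198 ± 0.36, adjusted p = 0.0149) and Hist1h2bb (1.67 ± 0.35, adjusted p = 0.039) and the H1 genes Hist1h1b (1.95 ± 0.33, adjusted p = 0.0164) and Hist1h1a (1.35 ± 0.29, adjusted p = 0.0466). The median tested gene differed by 0.94, against 0.06 for all genes, and 57 of 62 were positive. An unadjusted p under 0.05 was reached by 39 of 62 (62.9%), against 13.96% of all genes. The filter took the mean over all groups of the cohort, the 4-day group included. Low genes such as Hist1h2an, not tested in any other cohort, may have passed through that group and so add to this median and these counts. By class the medians were 1.14 for H1, 1.17 for H2A, 0.86 for H2B, 0.96 for H3 and 0.40 for H4. Abundant genes overlapped between the groups: Hist1h1c stood at 157, 191, 134 and 118 TPM, against 123 to 155 TPM in PBS, and Hist1h4h at 192, 230, 189 and 153 TPM, against 176 to 194 TPM. Hist1h1t, Hist1h2aa, Hist1h2ap, Hist1h2ba, Hist1h2bj, Hist2h2aa2 and Hist3h2bb-ps were not tested.

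At the earlier times the same genes lay between PBS and the 4-day level or overlapped with PBS. Hist1h3b stood at 6.84, 0, 2.46 and 2.86 TPM at 1 day and 5.02, 5.86, 7.09 and 11.4 TPM at 2 days. Hist1h3c stood at 4.54, 3.54, 2.41 and 3.35 TPM at 1 day and 5.41, 7.48, 6.03 and 7.59 TPM at 2 days. At 1 day both genes overlapped with PBS and at 2 days every library was above every PBS library, with means of 7.34 and 6.63 TPM against 1.87 and 2.58 TPM in PBS. The group means of the other 5 genes were between 2.11 and 6.33 TPM at 1 day and between 2.16 and 8.95 TPM at 2 days, against 1.14 to 3.16 TPM in PBS. No gene was called at 1 day (0 of 62; 1.38% of all genes called) or 2 days (0 of 62; 1.07% of all genes called). An unadjusted p under 0.05 was reached by 8 genes at 1 day (12.9%, against 12.2% of all genes) and 15 at 2 days (24.2%, against 12.03% of all genes). The medians were 0.29 and 0.46, with 51 and 53 of 62 genes positive. With the compared groups fitted alone 4 genes were called at 2 days, and with rescaling 1 (1.08% of all genes). The share of all genes called with the compared groups alone is not given here, so that count has no background. The 3 treated groups share the PBS group, so they are not independent of each other.

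**Figure D4:**
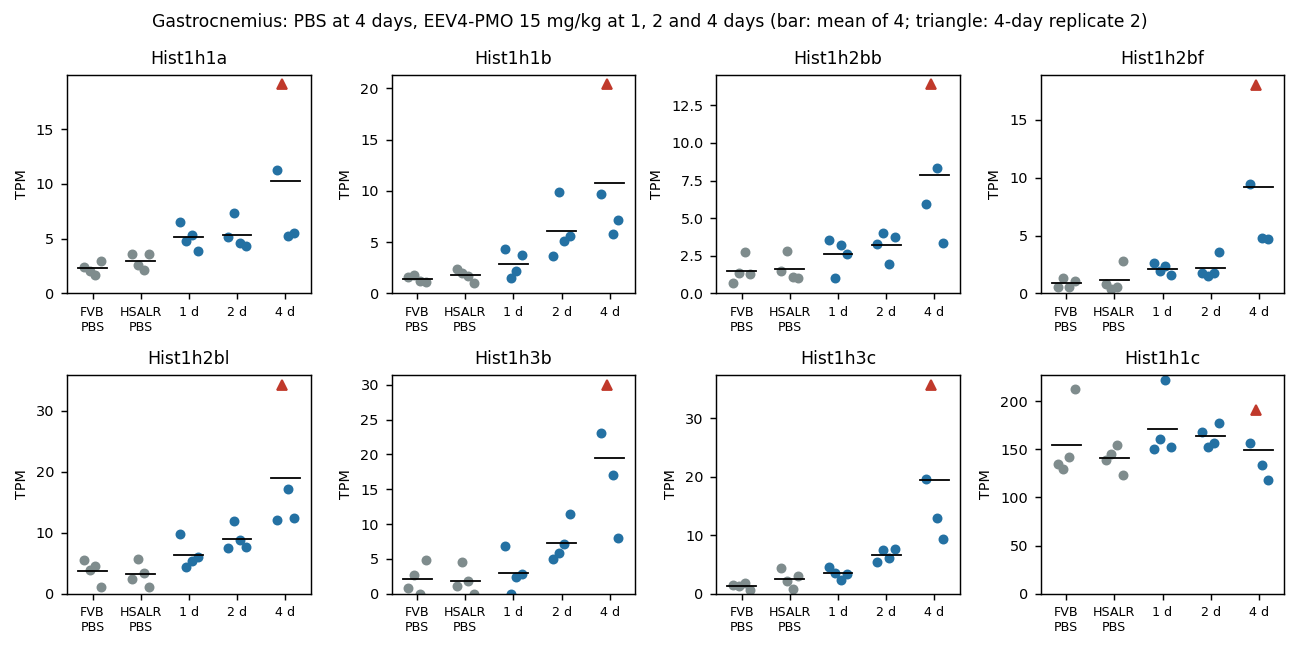
TPM (y axis) of the 7 genes called at 4 days and of Hist1h1c in each library of the gastrocnemius time course, for FVB/NJ and HSALR PBS and for EEV4-PMO at 1, 2 and 4 days (x axis); bars are means of 4, and the triangle is replicate 2 at 4 days. Hist1h3b at 4 days lies between 8.03 and 29.9 TPM, above all PBS libraries, and Hist1h1c overlaps between groups.

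The library of replicate 2 at 4 days stood apart in more than histone genes. Its sum over the 69 genes was 3260 TPM, against 1569 to 1955 TPM in the other 3 libraries and 1479 to 1627 TPM in PBS. Summed lymphocyte markers were 627 TPM in it and 5.80 to 7.83 TPM in the other 3, and summed macrophage markers were 713 TPM against 227 to 265 TPM (PBS 114 to 204 TPM). Summed skeletal muscle markers were 113840 TPM in it and 165000 to 183780 TPM in the other 3. The S phase list summed to 269 TPM in it, to 134 to 157 TPM in the other 3 and to 118 to 135 TPM in PBS. Without replicate 2 the mean histone sum at 4 days was 1752 TPM and 4 of the 7 genes were still called, namely Hist1h3c (2.12, adjusted p = 0.00271), Hist1h2bl (1.94, adjusted p = 0.0323), Hist1h2bf (1.84, adjusted p = 0.0161) and Hist1h1b (1.61, adjusted p = 0.018). Hist1h3b was then at 2.71 (adjusted p = 0.095).

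Other genes that rose at 4 days were 3 of 17 S phase genes, among them the proliferation marker Mki67 (1.61 ± 0.22, adjusted p = 0.00398), the topoisomerase Top2a (1.45, adjusted p = 0.017) and the thymidine kinase Tk1 (0.91, adjusted p = 0.0354). The macrophage gene Lyz2 (1.64, adjusted p = 0.0405), the embryonic myosin gene Myh3 (2.49, adjusted p = 0.017) and the centromeric H3 variant gene Cenpa (0.88, adjusted p = 0.039) rose too. They are called genes from lists of 12 macrophage, 6 myogenic regeneration and 11 histone variant genes, and the counts of calls in those lists are not given here. Fits without replicate 2 are not given for these genes or the S phase genes, so the rises of all but Myh3 may rest on that library. Of 11 lymphocyte markers 0 were called, and of 10 skeletal muscle genes 0. Myh3 was lowest in replicate 2 (7.14 TPM, against 30.2 to 46.9 TPM in the other 3). The part of these genes, or of the cells that express them, in the rise of the histone genes was not tested.

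The count of calls at 4 days also depended on the fit. It was 0 with the compared groups fitted alone (Hist1h3c at adjusted p = 0.246), 4 with the replicate number as a block and 14 after rescaling (0.682% of all genes). It was 4 without treated replicate 1, 12 without treated replicate 4, 3 without PBS replicate 1, 4 without PBS replicate 3 and 2 without PBS replicate 4. Hist1h3b lost its call without treated replicate 1, 2 or 3 or PBS replicate 1, 3 or 4 (adjusted p from 0.0644 to 0.127), and Hist1h2bl lost its call without PBS replicate 1 (2.21, adjusted p = 0.0562) or 4 (1.97, adjusted p = 0.0614). Hist1h3c kept an adjusted p of at most 0.0246 when any single library was left out. Shares of all genes called in the fits with a library left out are not given here.

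The rise was not seen in the quadriceps time course, where none of these 7 genes was called at 4 days. Hist1h3c stood at 3.34, 3.72, 1.03 and 2.84 TPM in HSALR PBS quadriceps and at 1.36, 3.39, 1.16 and 0.577 TPM at 4 days after EEV4-PMO. The test of the difference between the muscles (4-day effect in gastrocnemius minus that in quadriceps) was added after the data had been seen. In it 5 of 61 genes were higher in gastrocnemius and 0 lower (1.38% of all genes called, 0.594% as higher). These were Hist1h3c (3.00 ± 0.56, adjusted p = 0.00419), Hist1h2bf (2.45, adjusted p = 0.0182), the H3 gene Hist1h3a (1.94, adjusted p = 0.0389), Hist1h1a (1.78, adjusted p = 0.0151) and Hist1h1b (1.74, adjusted p = 0.0248). The count was 0 with the compared groups fitted alone (Hist1h3c at adjusted p = 0.0506), 1 with a pseudocount of 0.1, 10 after rescaling (4.27% of all genes) and 4 without gastrocnemius replicate 2 at 4 days, where Hist1h3c was at 2.66 (adjusted p = 0.00641) and Hist1h3a at 1.54 (adjusted p = 0.0713). The muscles belong to separately named time courses, and any other difference between those sets of libraries cannot be told apart from that between the muscles.

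In quadriceps itself few genes changed at any time. At 1 day 0 of 59 were called (0.615% of all genes called; 7 had an unadjusted p under 0.05, 11.9%, against 10.6% of all genes; 1 was called without treated replicate 4). At 2 days the linker gene Hist1h1e rose (1 of 59; 1.94% of all genes called), from 57.9, 70.8, 59.3 and 53.2 TPM to 90.4, 101, 71.0 and 81.7 TPM, by 0.50 ± 0.12 (adjusted p = 0.0311). All 4 treated libraries were above all 4 PBS libraries. Its call was lost without treated replicate 1, 2 or 4 or PBS replicate 1, 3 or 4 (adjusted p from 0.0721 to 0.105) and the count was then 0, except without treated replicate 2.

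At 4 days the only call of 59 was Hist2h3c2 (3.62 ± 0.95, adjusted p = 0.0178; 9.10% of all genes called), and it did not stand for H3 output. Hist2h3c2 stood at 0.0606, 0.00295, 5.71e-09 and 2.92 TPM in HSALR PBS and at 29.8, 19.2, 14.8 and 8.72 TPM at 4 days. Its near-identical partner Hist2h3c1 stood at 26.3, 36.4, 33.4 and 27.6 TPM in PBS and at 0, 0, 15.0 and 24.8 TPM at 4 days. The sum of the pair was 26.4, 36.4, 33.4 and 30.6 TPM in PBS and 29.8, 19.2, 29.8 and 33.5 TPM at 4 days, a log2 difference of −0.19 (adjusted p = 0.583). The values of 1 gene mirror those of the other, and the sums of the groups overlap. The count of calls was also 0 without treated replicate 1 or PBS replicate 1 or 3, 2 without PBS replicate 2 and 3 without treated replicate 4.

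**Figure D5:**
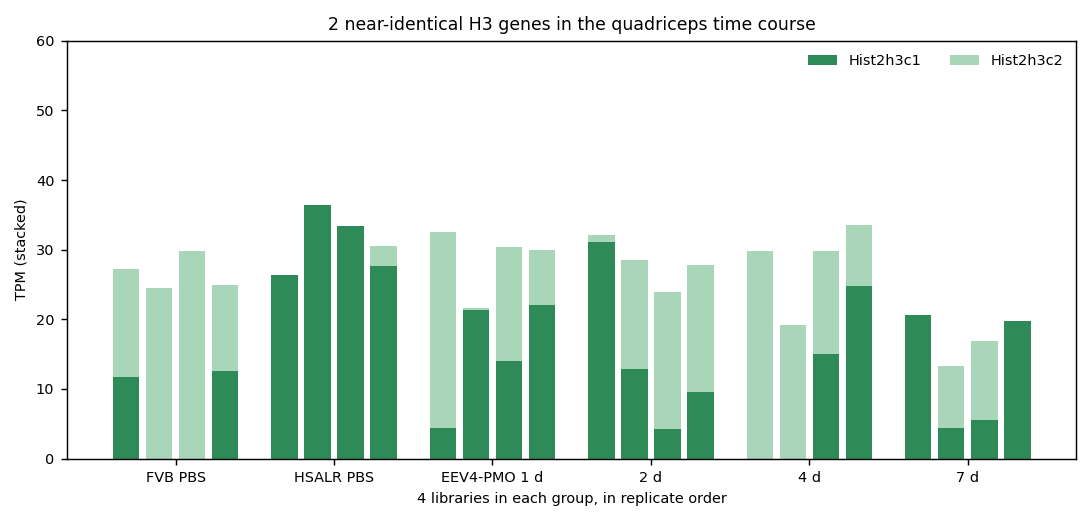
Stacked TPM (y axis) of Hist2h3c1 (dark) and Hist2h3c2 (light) in each library of the quadriceps time course, 4 libraries per group (x axis). The share of each gene changes from library to library, while at 4 days the summed height of 19.2 to 33.5 TPM overlaps with that of HSALR PBS, 26.4 to 36.4 TPM.

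At 7 days 2 genes rose and 3 fell (5 of 59; 13.9% of all genes called). The H3 gene Hist1h3g fell from 6.03, 10.9, 7.51 and 6.77 TPM in PBS to 1.82, 2.69, 1.58 and 3.57 TPM (−1.37 ± 0.24, adjusted p = 0.000847). Hist1h4h fell from 196, 203, 197 and 179 TPM to 132, 123, 142 and 160 TPM (−0.48 ± 0.10, adjusted p = 0.00356). Hist1h4d rose from 78.2, 97.7, 60.9 and 85.2 TPM to 115, 105, 104 and 129 TPM (0.50 ± 0.11, adjusted p = 0.0056). Groups did not overlap for any of the 3, and 2 of the 3 are H4 genes that went opposite ways. Hist2h3b (H3; 0.97, adjusted p = 0.0487) and Hist1h1a (−0.79, adjusted p = 0.0381) were called as well. Leaving out any library but PBS replicate 2 ended the call of Hist2h3b (adjusted p from 0.0593 to 0.169), and leaving out PBS replicate 2, 3 or 4 or treated replicate 1, 2 or 4 that of Hist1h1a (adjusted p from 0.0571 to 0.135). The count was 3 without PBS replicate 4, treated replicate 1 or treated replicate 2, and 3 with the replicate number as a block.

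At 3 months 0 of 55 genes were called (7.65% of all genes called; 6 had an unadjusted p under 0.05, 10.9%, against 29.1% of all genes). The median histone gene differed by −0.05 and the median of all genes by −0.17, and after rescaling 0.0370% of all genes were called. Without treated replicate 1, 2 histone genes were called, and the share of all genes called in that fit is not given here.

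The wild type differed from HSALR mice in partly different histone genes in each cohort. Hist1h4h and Hist2h2aa1 were called lower in FVB/NJ in both time courses, quadriceps and gastrocnemius at 4 days. In quadriceps at 4 days, FVB/NJ was higher in 2 and lower in 5 of 59 genes (13.7% of all genes called). Hist1h4h stood at 137, 138, 112 and 113 TPM, below the HSALR PBS libraries given above (−0.63 ± 0.10, adjusted p = 0.000233), and so did Hist1h3g at 3.79, 3.81, 2.58 and 1.88 TPM (−1.14 ± 0.24, adjusted p = 0.00318). Hist1h3g and Hist1h4h were thus lower than HSALR PBS both in FVB/NJ and at 7 days after EEV4-PMO, in comparisons that share the PBS libraries. Hist2h2aa1 (−0.41, adjusted p = 0.000895) and Hist1h4i (−0.41, adjusted p = 0.0179) were lower too. Hist1h4i was not called without FVB/NJ replicate 1 or 2 or HSALR replicate 2 or 3 (adjusted p from 0.0542 to 0.0692). Hist2h3b was higher (1.05, adjusted p = 0.0341), a call lost without FVB/NJ replicate 1 or 3 or HSALR replicate 3 or 4 (adjusted p from 0.0625 to 0.135). Hist2h3c2 was called higher (3.84, adjusted p = 0.00925) and Hist2h3c1 lower (−3.13, adjusted p = 0.0457), but their sum differed by −0.24 (adjusted p = 0.362). The count was 4 without HSALR replicate 3.

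In gastrocnemius at 7 days, FVB/NJ was higher in 10 of 58 genes and lower in 0 (17.2% higher; 20.6% of all genes called, 8.79% as higher), with a median of 0.30 against −0.003 for all genes. These were 3 H1, 3 H2A and 4 H4 genes. The H2A gene Hist1h2ak stood at 7.34, 8.62, 5.71 and 5.62 TPM, above all 8 HSALR PBS libraries (1.81 to 4.87 TPM), and was higher by 0.86 ± 0.24 (adjusted p = 0.0127). The H2A genes Hist1h2ae (1.10 ± 0.25, adjusted p = 0.00328) and Hist1h2ag (1.04 ± 0.35, adjusted p = 0.0361) were low in both groups, at most 3.58 and 5.84 TPM. The count was 6 without FVB/NJ replicate 1, 4 without FVB/NJ replicate 2 and 5 with the replicate number as a block. Hist1h2ak lost its call without FVB/NJ replicate 2 (0.75, adjusted p = 0.0575), and Hist1h2ag without HSALR replicate 1, 2 or 5 (adjusted p from 0.0533 to 0.0647).

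In the other gastrocnemius cohort, at 4 days, FVB/NJ was higher in 0 and lower in 6 of 62 genes (9.68% lower; 8.26% of all genes called, 6.72% as lower), with a median of −0.20 against −0.10 for all genes. The H2B gene Hist1h2bh stood at 0.867, 2.28, 1.29 and 0.218 TPM, against 3.50, 7.17, 2.80 and 6.69 TPM in HSALR PBS (−1.49 ± 0.36, adjusted p = 0.0146). The H3 gene Hist1h3d stood at 14.0, 10.7, 10.9 and 8.46 TPM against 20.1, 19.99, 17.2 and 20.1 TPM (−0.78 ± 0.20, adjusted p = 0.0221). Neither gene overlapped between the groups. Hist1h4m had the largest difference (−2.92 ± 0.68, adjusted p = 0.0118), but summed with Hist1h4n it was −0.33 (adjusted p = 0.546). Hist2h2aa1, Hist2h2be and Hist1h4h were the other 3. The count was 3 without FVB/NJ replicate 4 or HSALR replicate 1, 1 without HSALR replicate 2 and 2 without HSALR replicate 4, and each of Hist1h2bh, Hist1h3d and Hist1h4m lost its call without HSALR replicate 2 (adjusted p = 0.0578, 0.0606 and 0.0501). Hist1h2bh lost it also without FVB/NJ replicate 4 or HSALR replicate 4 (adjusted p = 0.0557 and 0.0501), and Hist1h3d without FVB/NJ replicate 2 or 4 or HSALR replicate 1 or 4 (adjusted p from 0.0519 to 0.0776). The 10 genes of the 7-day cohort and the 6 of the 4-day cohort thus went in opposite directions against HSALR mice; the difference between the cohorts was not tested.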

How the data were processed

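Libraries were made by the authors from rRNA-depleted RNA with a directional kit, per the labels' protocols; RNA of the nascent cohort (EU-containing and matching total RNA) was extracted with another kit than the rest. Of tools, kallisto, STAR and cutadapt are named in the submitters' processing notes, and of builds mm10 and GRCm38; versions are not given in the sources used here. The deposited table gives TPM per gene and library, as computed by the authors; of 24528 rows, 2 lack values. It holds no read counts, so depth is unknown and no counting interval can be given. A deposited splicing table holds inclusion levels as a fraction (117460 events, of which 1 is in a clustered histone gene); it was used only for that count.

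Each cohort was fitted with limma 3.58.1 in R 4.3.3 (moderated two-sided test with trend) on log2(TPM + 1), all groups of the cohort sharing 1 spread, over genes with a mean of at least 1 TPM in the cohort. P-values were Benjamini-Hochberg adjusted over all genes tested, with a call at 0.05, and 23 comparisons were planned. Fold changes on this scale understate those of low genes. The filter used the mean over all libraries of the cohort, so a low gene can pass through a group where it is high. The procedure was tested on simulated data. TPM is a share of the library, so a median-ratio rescaling was an alternative, with a pseudocount of 0.1, no filter, the compared groups alone, the replicate number as a block and each library left out. Summing near-identical copies, the comparison of muscles at 4 days and its alternatives were added after the data had been seen. Kallisto divides reads of near-identical genes by estimate.

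Named genes were the 8 with the highest mean over all libraries and, for each comparison, the called genes with the largest change, up to 5 in each direction for nascent against total RNA in PBS mice and up to 3 elsewhere; of each other gene list, counts and up to 3 called genes. The members and lists were chosen with earlier results of these data known.

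Same-numbered nascent and total libraries deviated together in PBS mice (4 of 4 correlations over 0.1, from 0.128 to 0.293) and at 2 days (3 of 3), not at 1 day (2 of 3, lowest 0.0994); the labels give the shared numbers but do not say that they mark 1 mouse. In no other comparison did every pair exceed 0.1.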

Additional observations from a re-analysis of the deposited data

Results flagged for a closer look

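Among the summed level and the 8 highest genes, 180 sets of 1 measure in 1 group were checked for a library far from the others of its group, and 13 were found; chance gives about 1 in 20. The summed level stood apart in gastrocnemius PMO replicate 1 at 7 days (1590 TPM, nearest other library 1423), in gastrocnemius HSALR PBS replicate 2 at 4 days (1627 TPM, nearest 1486) and in quadriceps EEV4-PMO replicate 3 at 4 days (1429 TPM, nearest 1484). The linker gene Hist1h1c was high in gastrocnemius EEV4-PMO replicate 3 at 1 day (222 TPM, nearest 160) and in gastrocnemius FVB/NJ replicate 4 at 4 days (213 TPM, nearest 142). The H4 gene Hist1h4h was low in gastrocnemius EEV4-PMO replicate 3 at 1 day (176 TPM, nearest 202) and in quadriceps EEV4-PMO replicate 3 at 1 day (158 TPM, nearest 189). Hist1h4i was low in gastrocnemius FVB/NJ replicate 4 at 7 days (93.0 TPM, nearest 110). Hist2h2aa1 was high in gastrocnemius EEV4-PMO replicate 2 at 4 days (193 TPM, nearest 128), the library that also stood apart in lymphocyte markers. Hist1h2bc was high in quadriceps EEV4-PMO replicate 4 at 7 days (137 TPM, nearest 100) and low in quadriceps PBS replicate 2 at 3 months (81.5 TPM, nearest 100). Hist1h4c was high in quadriceps EEV4-PMO replicate 1 at 3 months (136 TPM, nearest 81.7), and Hist1h4d in quadriceps PBS replicate 3 at 3 months (104 TPM, nearest 66.1).

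The 4-day effect of EEV4-PMO differed between the muscles, by a test of the difference itself, for Hist1h1a (1.78 higher in gastrocnemius on the log2 scale), Hist1h1b (1.74), Hist1h2bf (2.45), Hist1h3a (1.94) and Hist1h3c (3.00). No cause of these values was tested.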

How the results depend on the processing

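In nascent against total RNA, with single libraries left out, the calls in both directions together numbered 24 to 30 in PBS mice, 13 to 19 at 1 day and 16 to 23 at 2 days. Rescaling by the median ratio raised the calls at 1 and 2 days to 37 each, gave 1 call in total RNA at 2 days and 1 in gastrocnemius at 2 days, 14 in gastrocnemius at 4 days and 10 between the muscles, and reversed Hist3h2a in nascent RNA of PBS mice (−0.12). It moved the summed level to 1357 TPM in gastrocnemius at 30 mg/kg, 1413 in gastrocnemius FVB/NJ at 4 days, 1470 in quadriceps at 1 day, 1743, 1796 and 1778 in total RNA of PBS mice and at 1 and 2 days, and 746 and 784 in nascent RNA of PBS mice and at 1 day. With the compared groups alone the calls were 0 in nascent RNA at 1 and 2 days, 4 in gastrocnemius at 2 days, 0 at 4 days and between the muscles, and in quadriceps 0 at 2 days, 3 at 7 days and 4 for FVB/NJ. A pseudocount of 0.1 gave 0 and 2 calls in nascent RNA at 1 and 2 days and 1 between the muscles, and no filter gave 3 in quadriceps at 7 days. Summing near-identical copies left 0 calls in quadriceps at 4 days and reversed Hist2h3c2 there (−0.19) and in FVB/NJ quadriceps (−0.24). The causes were not tested. No paired analysis was possible between the muscles because the labels do not tie the numbers of the 2 time courses to each other.

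With the replicate number as a block, nascent against total RNA gave 28, 20 and 26 calls in PBS mice and at 1 and 2 days, and of the named genes only Hist2h2ab at 2 days lost its call (0.92, adjusted p = 0.0638). Elsewhere, where the numbers pair nothing, the block gave 4 calls in gastrocnemius at 4 days, 5 for FVB/NJ gastrocnemius at 7 days and 3 in quadriceps at 7 days, and the other counts stayed within 1.5 times. In gastrocnemius at 4 days 3 of 4 libraries correlated best with their own number.

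With single libraries left out, the calls ranged from 0 to 1 and 0 to 6 in nascent RNA at 1 and 2 days; in gastrocnemius from 1 to 4 at 15 mg/kg, 2 to 5 at 30 mg/kg, 4 to 10 and 1 to 6 for FVB/NJ at 7 and 4 days and 2 to 12 at 4 days; and in quadriceps from 0 to 1 at 1 day, 0 to 1 at 2 days, 0 to 3 at 4 days, 3 to 5 at 7 days, 4 to 10 for FVB/NJ and 0 to 2 at 3 months. Shares of all genes called in these fits are not given here, so the counts have no background. The mean summed level in gastrocnemius at 4 days ranged from 1752 to 2316 TPM. Of the named genes, 61 of 415 values under other settings and 102 of 534 with a library left out kept their direction but lost their call. With no read counts deposited, how far depth limits genes near 0 TPM is unknown.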
